A study of Mus musculus with 6 samples.

Results

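The genes described here are the cell cycle and DNA replication genes of sorted mouse mesoderm, a list of 45 genes that was matched by symbol to the probe sets of an Affymetrix mouse array. Of the 45 genes, 44 had a probe set whose single annotated symbol was theirs, and together they had 100 of the 45101 probe sets. Ccnb1, which encodes cyclin B1, was matched to no such probe set and was not analysed here. The 44 genes were split by role into 12 replication genes, 10 genes of G1 and S entry, 17 mitotic genes and 5 inhibitors. Cdkn2a, an inhibitor gene, lay under the limit for dim genes (the 40th percentile of each array) on all 6 arrays, so 43 genes were tested, and each of those 43 lay above the limit on all 6 arrays.

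A dividing cell passes from G1 through DNA synthesis (S phase) and G2 into mitosis. D-type and E-type cyclins with their kinases open the way into S phase by inactivating the retinoblastoma protein, which releases E2F transcription factors onto the genes of DNA replication; inhibitors of the cyclin-dependent kinases hold this step back. Genes of G2 and mitosis are transcribed later in the cycle, through promoters that often carry CCAAT boxes and a cell cycle genes homology region, called CHR. S phase genes, mitotic genes and inhibitors are therefore described apart.

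RNA was measured in Flk1+ mesodermal cells sorted from embryoid bodies, aggregates of differentiating mouse embryonic stem (ES) cells, after 2 days of pre-differentiation culture and 4 days as embryoid bodies seeded with 100000 cells per well. Scl (gene Tal1) is a transcription factor needed for blood formation, and Flk1 (gene Kdr) is a receptor on early mesoderm. The reporter line comes from R1 cells, from a (129/Sv x 129/Sv-CP)F1 blastocyst, with human CD4 knocked in at Scl, and its Flk1+hCD4+ cells (WT Scl+, n = 2 arrays) and Flk1+hCD4- cells (WT Scl-, n = 2) were collected. The SclKO cells (n = 2) were Flk1+ cells of a line lacking Scl, which was derived from the J1 line of strain 129S4/SvJae and sorted on Flk1 alone, although the sample titles also name them Scl negative. Knockout, parental ES line and gate cannot be told apart in any comparison with SclKO, and the reporter cells carry the knock-in whichever gate they came through. The labels do not say whether the replicates were separate cultures, so the p-values measure the spread between these arrays, which may be technical.

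Levels are natural logs of the deposited values, with array medians between 5.20 and 5.25, and differences are in log units. The log base of the deposited values is not stated. If the natural log is the authors' log2 value, 1 log unit is 2-fold. If the deposited values are linear, it is 2.72-fold, and folds are given in that order. On each array, 1040 to 1153 deposited values exceeded the scanner ceiling, and the highest natural log of an array was 14.77 to 14.85. A linear scanner signal would not reach such values. The first fold is therefore the better founded reading, and the second is kept as an alternative. Levels are compared between arrays and never between probe sets. Tal1 was at 8.65 and 8.78 in WT Scl+, 6.52 and 7.97 in WT Scl- and 5.71 and 6.14 in SclKO, and Kdr lay between 10.83 and 11.35 on all 6. WT Scl+ replicate 2 stood apart from the other arrays on the first principal component, at -51.3 against -9.9 to 26 for the rest. By limma's moderated test with Benjamini-Hochberg adjustment over 12922 genes, 0 genes were called between WT Scl+ and WT Scl- (0%), 1 between SclKO and WT Scl+ and 1 between SclKO and WT Scl- (0.00774% each), and 0 cell cycle members were called in any of the 3. At an unadjusted p under 0.05, the WT Scl+ against WT Scl- comparison held 697 genes higher and 484 lower. Leaving out WT Scl+ replicate 1 raised the called genes to 203 between the WT groups and 701 between SclKO and WT Scl+; that last count was 49 without either WT Scl- array and 0 without WT Scl+ replicate 2 or either SclKO array, and the count between SclKO and WT Scl- was 0 without any 1 of the 4 arrays compared. In sorted bulk cells, fewer cells of a kind and less RNA per cell cannot be told apart.

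**Figure D1:**
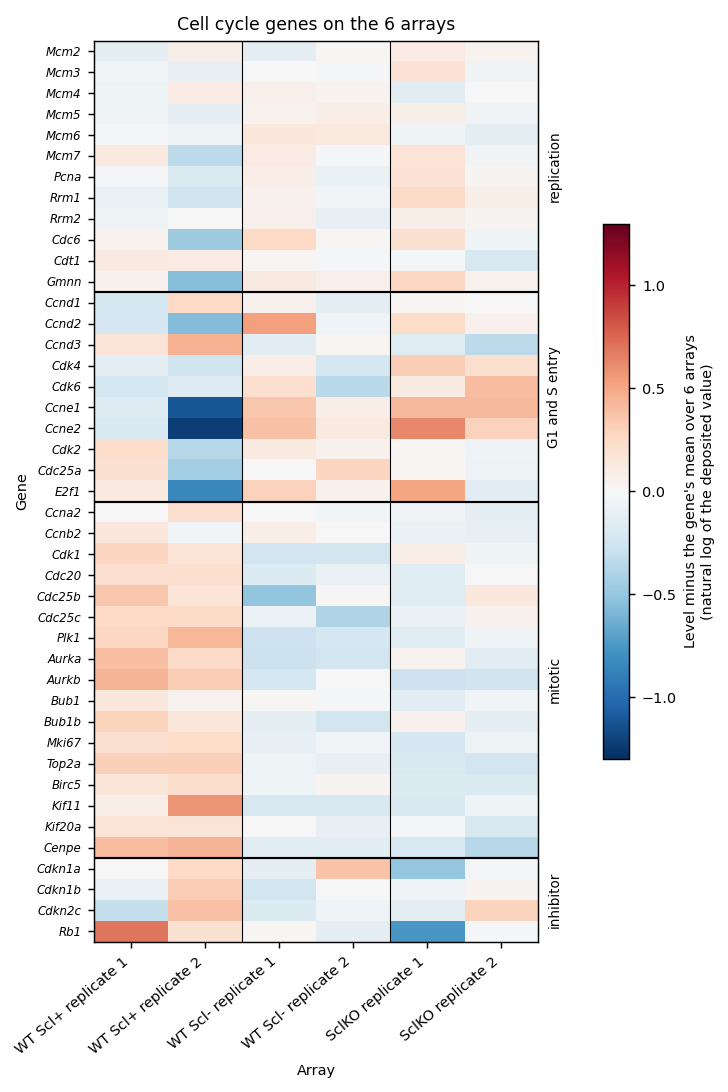
Heat map of the 43 tested genes (rows, by role) on the 6 arrays (columns); colour is the natural log level minus the gene's own mean over the 6 arrays, red above it and blue below it. The mitotic block is mostly red on both WT Scl+ arrays and mostly pale or blue on the other 4, and the deepest blue cells are Ccne2 (level 4.70) and Ccne1 (7.49) on WT Scl+ replicate 2.

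The mitotic genes are shown first, with promoter sequence for those whose 150 bases before the RefSeq start (build GRCm38.p6) held the CHR letters TTTGAA on either strand. These 5 of the 13 mitotic genes with a promoter window are printed 5′ to 3′ on the gene's strand, with capitals for TTTGAA or its complement TTCAAA, for CCAAT or its complement ATTGG, and for E2F octamers. Cdk1 lies on the minus strand at chr10:69352913-69353062, Kif11 on the plus strand at chr19:37376232-37376381, Top2a on the minus strand at chr11:99024190-99024339, Cdc20 on the minus strand at chr4:118437344-118437493 and Mki67 on the minus strand at chr7:135716380-135716529.
Cdk1: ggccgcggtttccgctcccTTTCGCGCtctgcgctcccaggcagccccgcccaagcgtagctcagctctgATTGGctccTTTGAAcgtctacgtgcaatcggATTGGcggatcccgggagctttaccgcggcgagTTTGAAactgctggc
Kif11: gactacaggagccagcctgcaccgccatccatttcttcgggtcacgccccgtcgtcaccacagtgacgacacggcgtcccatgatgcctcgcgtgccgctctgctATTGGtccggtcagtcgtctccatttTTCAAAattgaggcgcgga
Top2a: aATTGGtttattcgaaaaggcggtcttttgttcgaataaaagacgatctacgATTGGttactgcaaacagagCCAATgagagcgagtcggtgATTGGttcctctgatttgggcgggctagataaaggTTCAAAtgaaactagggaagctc
Cdc20: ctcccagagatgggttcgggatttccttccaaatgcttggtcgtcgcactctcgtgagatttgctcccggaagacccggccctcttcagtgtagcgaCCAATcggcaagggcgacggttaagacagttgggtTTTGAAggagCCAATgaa
Mki67: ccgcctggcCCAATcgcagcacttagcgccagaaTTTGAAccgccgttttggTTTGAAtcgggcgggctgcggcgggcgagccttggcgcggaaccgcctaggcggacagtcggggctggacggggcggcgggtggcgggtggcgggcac
In windows of 300 bases, from 250 before to 50 after each start, TTTGAA was found on either strand in 9 of 13 mitotic windows (69.2%) and in 17.9% of all 32851 windows searched. The variant TTTAAA was found in 4 of 13 (30.8%) against 13.2% of all. CCAAT was found in 12 of 13 mitotic windows (92.3%) against 37.4% of all, and 2 or more copies stood in 7 (53.8%) against 11.7%. A match of letters is a description and not a bound site.

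WT Scl+ cells were compared with WT Scl- cells to see how Flk1+ cells with the Scl reporter on differ from those with it off. The difference was above 0 in all 17 mitotic genes, against 46.1% of all genes tested, and its median over the 17 was 0.40 log units, against -0.023 over all genes. In 16 of the 17 both WT Scl+ arrays lay above both WT Scl- arrays, as they did for 18.9% of all genes, and 9 had an unadjusted limma p under 0.05 as higher, against 5.39% of all genes. None of the 17 passed over all genes (lowest limma adjusted p = 0.397), the count of 17 was 16 without WT Scl+ replicate 1 or WT Scl- replicate 2, and the count of 9 was 4 without WT Scl- replicate 1 and 5 without WT Scl- replicate 2. Of the mitotic probe sets, 28 exceeded the dim limit on 2 or more arrays, and in each of them the WT Scl+ mean was the higher one (median difference 0.39).

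The kinases of mitotic entry carried some of the larger differences. Plk1, the kinase that drives entry into mitosis and spindle assembly, was at 9.26 and 9.42 in WT Scl+, 8.72 and 8.76 in WT Scl- and 8.85 and 8.93 in SclKO. Aurka, the spindle pole kinase, was at 9.76 and 9.62 in WT Scl+, 9.09 and 9.12 in WT Scl- and 9.42 and 9.23 in SclKO. For both genes the WT Scl+ arrays were the 2 highest and the WT Scl- arrays the 2 lowest. The WT Scl+ minus WT Scl- difference was 0.59 log units for Plk1 (SE 0.15, 1.51-fold or 1.81-fold, limma adjusted p = 0.397) and 0.59 for Aurka (SE 0.15, 1.50-fold or 1.80-fold, limma adjusted p = 0.401). With the mean of its probe sets, Aurka was at 0.34.

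Cdk1, the kinase that triggers mitosis, was at 10.06 and 9.96 in WT Scl+, 9.53 and 9.54 in WT Scl- and 9.86 and 9.72 in SclKO. Its SclKO arrays lay between those of the WT groups with no overlap on either side. The WT Scl+ minus WT Scl- difference of Cdk1 was 0.47 log units (SE 0.14, 1.39-fold or 1.61-fold, limma adjusted p = 0.438). Cdc25c, a phosphatase that activates Cdk1, was at 9.15 and 9.14 in WT Scl+, 8.82 and 8.50 in WT Scl- and 8.81 and 8.95 in SclKO. Its relative Cdc25b was at 6.73 and 6.55 in WT Scl+, 5.87 and 6.40 in WT Scl- and 6.23 and 6.52 in SclKO. In both phosphatase genes the 2 WT Scl+ arrays were the highest of the 6, and in Cdc25b the margin over the nearest SclKO array was small. Cyclin genes stood out less: Ccna2 had a difference of 0.14 (SE 0.15), and Ccnb2, at 9.51 and 9.34 in WT Scl+ against 9.46 and 9.38 in WT Scl-, was the 1 mitotic gene whose WT groups overlapped.

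Among genes of the chromosome and spindle, Cenpe, the kinesin that carries chromosomes to the spindle equator, was at 10.73 and 10.77 in WT Scl+, 10.19 and 10.19 in WT Scl- and 10.12 and 9.95 in SclKO. Top2a, the topoisomerase that untangles sister DNAs, was at 10.76 and 10.76 in WT Scl+, 10.38 and 10.34 in WT Scl- and 10.25 and 10.20 in SclKO. Kif11, the kinesin that separates spindle poles, was at 9.70 and 10.19 in WT Scl+, 9.41 and 9.41 in WT Scl- and 9.42 and 9.56 in SclKO. The 3 genes shared the order, with WT Scl+ above both other groups, and the Kif11 value leaned on WT Scl+ replicate 2. Their WT Scl+ minus WT Scl- differences were 0.56 (SE 0.14), 0.40 (SE 0.14) and 0.54 (SE 0.20) log units, with limma adjusted p = 0.401, 0.481 and 0.495. The Kif11 difference was 0.29 without WT Scl+ replicate 2, and that of Top2a was 0.20 with the mean of its probe sets.

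The passenger complex corrects the attachment of chromosomes to the spindle, and the spindle checkpoint holds mitosis until attachment is complete. Aurkb, the kinase of the passenger complex, was at 9.51 and 9.40 in WT Scl+, 8.84 and 9.06 in WT Scl- and 8.80 and 8.81 in SclKO. Its partner Birc5 was at 10.44 and 10.52 in WT Scl+, 10.23 and 10.32 in WT Scl- and 10.11 and 10.10 in SclKO. Bub1b, a checkpoint kinase homologue, was at 9.42 and 9.28 in WT Scl+, 9.01 and 8.90 in WT Scl- and 9.19 and 9.01 in SclKO. All 3 genes had their 2 highest values on the WT Scl+ arrays, but only Aurkb and Bub1b had an unadjusted p under 0.05 between the WT groups. Their differences were 0.50 for Aurkb (SE 0.15), 0.40 for Bub1b (SE 0.15) and 0.21 for Birc5 (SE 0.14) log units. Bub1, Kif20a and Cdc20, the last an activator of the anaphase-promoting complex, had differences of 0.09, 0.23 and 0.35 log units. Mki67, the proliferation marker Ki-67, was at 12.20 and 12.24 in WT Scl+, 11.89 and 11.96 in WT Scl- and 11.78 and 11.93 in SclKO, a WT Scl+ minus WT Scl- difference of 0.29 (SE 0.14, limma adjusted p = 0.62).

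**Figure D2:**
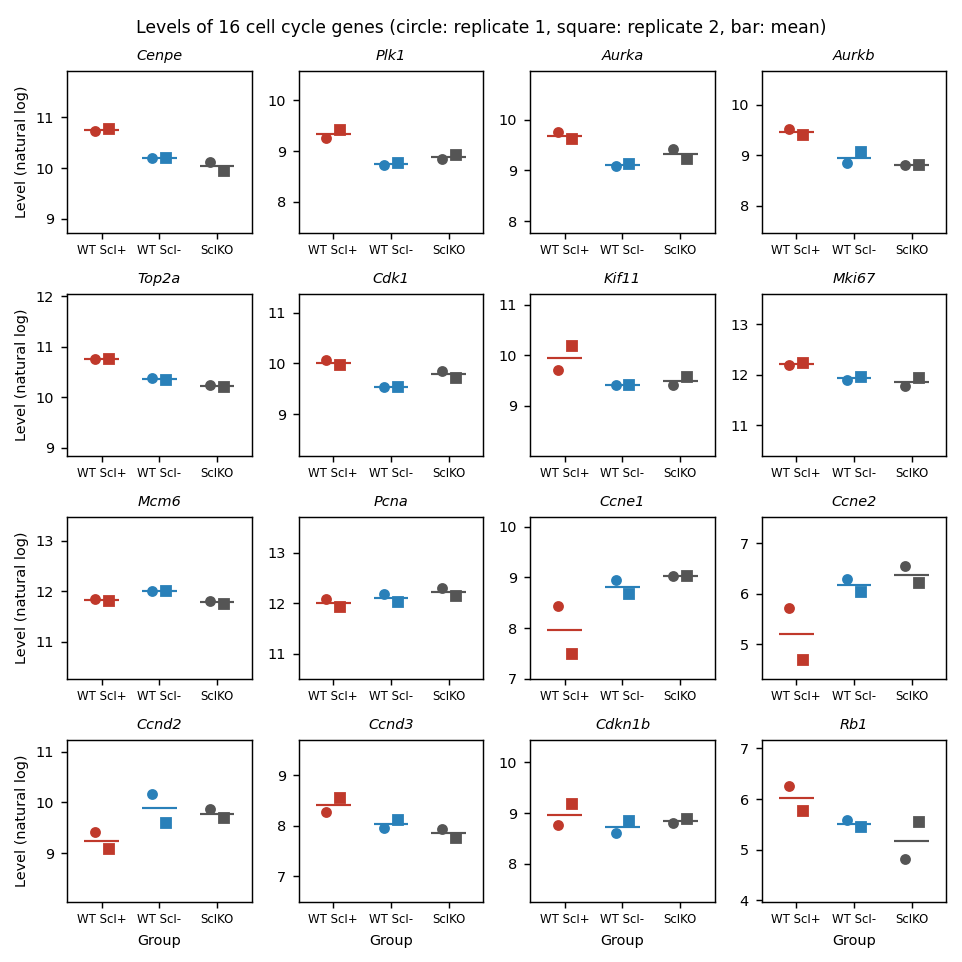
Natural log level of 16 cell cycle genes in WT Scl+, WT Scl- and SclKO; each point is 1 array (circle replicate 1, square replicate 2), each bar the group mean, and axes differ between panels. In the 8 mitotic panels, for example Cenpe at 10.73 and 10.77, both WT Scl+ points lie above all 4 others, while Ccne1 and Ccne2 are lowest in WT Scl+, with replicate 2 at 7.49 and 4.70.

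SclKO cells were compared with WT Scl+ cells to see how Flk1+ cells of the line lacking Scl differ from reporter cells with Scl on; this comparison uses the same WT Scl+ arrays as the last one. All 17 mitotic genes were lower in SclKO without overlap, as were 20.2% of all genes (55.5% of all genes had a difference above 0), with a median difference of -0.29 log units against 0.038 over all genes. Of the 17, 7 had an unadjusted p under 0.05 as lower (Plk1, Aurka, Aurkb, Mki67, Top2a, Birc5 and Cenpe), against 6.81% of all genes. Cenpe differed by -0.72 log units (SE 0.14, 1.65-fold or 2.05-fold, limma adjusted p = 0.151), which was the lowest adjusted p among the members. The difference of Aurkb was -0.65 (SE 0.15, limma adjusted p = 0.177) and that of Top2a was -0.53 (SE 0.14, limma adjusted p = 0.205; -0.19 with the mean of its probe sets). Plk1 differed by -0.44 (SE 0.15), Birc5 by -0.38 (SE 0.14), Aurka by -0.37 (SE 0.15) and Mki67 by -0.36 (SE 0.14). The other 10 mitotic genes had differences from -0.46 in Kif11 (-0.21 without WT Scl+ replicate 2 and -0.70 without WT Scl+ replicate 1) to -0.14 in Ccnb2, and none of the 17 passed over all genes. The count of 7 was 4 without WT Scl+ replicate 2 or either WT Scl- array, and 3 without either SclKO array.

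SclKO cells were compared with WT Scl- cells as the Flk1+ cells lacking Scl and those with the reporter off. The difference was above 0 in 8 of the 17 mitotic genes and below 0 in 9, against 54% of all genes above 0. Its median was -0.06 log units, and 0 genes had an unadjusted p under 0.05, against 3.15% of all genes as higher and 2.38% as lower. Single differences ran from -0.17 in Birc5 to 0.25 in Cdk1, and their 95% intervals reached from -0.52 to 0.78, so a p that misses the threshold does not show that the groups were alike. The 5 genes Cdk1, Plk1, Aurka, Bub1b and Kif11 were higher in SclKO without overlap (22.9% of all genes were), and 7 were lower without overlap (18.7% of all genes).

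Across the 6 arrays, both WT Scl+ arrays lay above all 4 others in 16 of the 17 mitotic genes, as in 10.9% of all genes tested. The mean level of the 17 was 9.94 and 9.94 in WT Scl+, 9.56 and 9.58 in WT Scl- and 9.59 and 9.59 in SclKO. WT Scl+ replicate 2, which stood apart over all genes, did not stand apart from replicate 1 in this mean.

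Markers of blood and endothelium, like the mitotic genes, were higher on average on the WT Scl+ arrays. The mean level of the 7 blood and erythroid markers was 6.61 to 7.24 on the WT Scl+ arrays and 4.84 to 5.63 on the other 4, and that of the 7 endothelial markers was 7.28 to 8.07 against 4.92 to 6.82. Within groups the endothelial mean varied more than the mitotic mean. It was 4.92 and 6.82 in WT Scl- and 5.46 and 6.28 in SclKO, against mitotic means of 9.56 and 9.58, and 9.59 and 9.59. For all 7 markers of each list the WT Scl+ arrays lay above the WT Scl- arrays without overlap, as in 18.9% of all genes. Hba-x, an embryonic globin gene, lay under the dim limit on the 4 arrays of the other groups. The 5 markers of Flk1+ mesoderm had a mean of 8.15 to 8.79 on the WT Scl+ arrays and 9.39 to 9.95 on the others. The part of these markers in the mitotic values, and in the G1 and S entry values below, was not tested. Pluripotency markers averaged 6.02 to 7.51 in WT Scl+, 6.46 to 6.94 in WT Scl- and 7.54 to 7.65 in SclKO, and endoderm markers 6.29 to 6.60, 5.58 to 5.92 and 5.84 to 5.85. Most of the higher endoderm mean in WT Scl+ came from Sox7 and Sox17. Their WT Scl+ minus WT Scl- differences were 2.13 and 1.51, and their SclKO minus WT Scl+ differences -3.62 and -1.16. Foxa2, Ttr, Cer1 and Dab2 had differences of both signs, from -0.42 to 0.41 and from -0.34 to 0.91 in these comparisons.

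The replication genes encode the Mcm helicase, its loaders and the enzymes that supply nucleotides. Promoter sequence is shown for the 3 whose 150 bases before the RefSeq start held an E2F octamer (TTTCCCGC, TTTCGCGC, TTTGCCGC or TTTGGCGC, either strand), in capitals as above. Mcm6 lies on the minus strand at chr1:128359706-128359855, Mcm5 on the plus strand at chr8:75109359-75109508 and Cdc6 on the plus strand at chr11:98908001-98908150.
Mcm6: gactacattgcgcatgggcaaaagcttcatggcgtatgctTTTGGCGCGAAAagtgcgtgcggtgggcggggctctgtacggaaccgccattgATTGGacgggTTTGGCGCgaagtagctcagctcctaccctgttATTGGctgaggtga
Mcm5: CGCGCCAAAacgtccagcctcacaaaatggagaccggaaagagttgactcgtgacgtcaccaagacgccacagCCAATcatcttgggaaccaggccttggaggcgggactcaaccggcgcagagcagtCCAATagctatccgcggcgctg
Cdc6: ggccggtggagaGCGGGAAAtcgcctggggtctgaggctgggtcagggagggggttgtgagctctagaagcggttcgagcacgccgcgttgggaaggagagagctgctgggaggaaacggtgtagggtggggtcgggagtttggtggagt
In the windows of 300 bases, an octamer was found in 6 of 11 replication windows (54.5%), in 2.3% of all windows, in 1 of 13 mitotic windows (7.7%) and in 2 of 8 windows of G1 and S entry genes (25.0%). The first capitals of the Mcm5 stretch also hold the end of an octamer that starts before the printed bases and overlaps the printed one. The Mcm6 run TTTGGCGCGAAA holds overlapping octamers of both strands. TTTGAA was found in 1 of the 11 replication windows (9.1%).

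**Figure D3:**
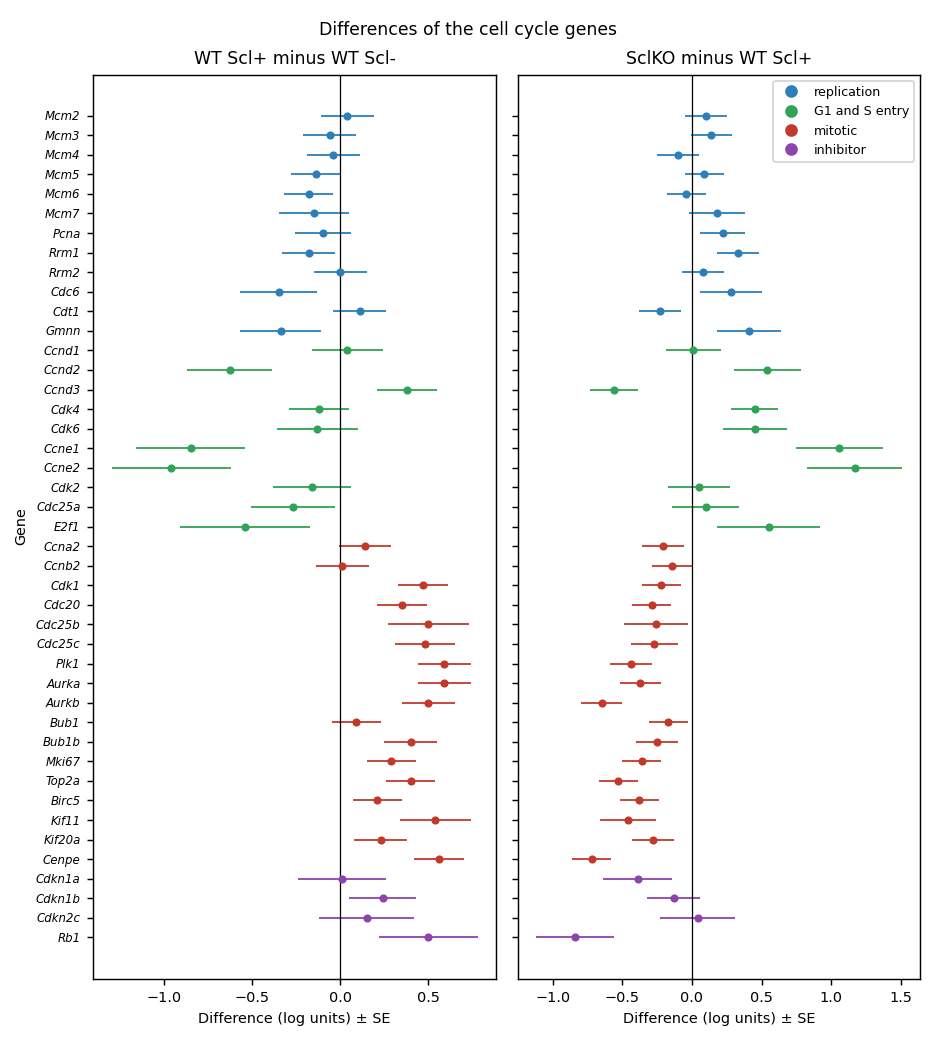
Difference in log units (points) with its standard error (bars) for the 43 tested genes, WT Scl+ minus WT Scl- on the left and SclKO minus WT Scl+ on the right, coloured by role. The 17 mitotic genes lie right of 0 on the left (0.01 to 0.59) and left of 0 on the right (-0.72 to -0.14), while the 12 replication genes lie on both sides of 0 in each panel; the panels share the WT Scl+ arrays.

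In the replication genes, no member stood at an unadjusted p under 0.05 in any comparison on the probe sets used, and values depended on the probe set. Between WT Scl+ and WT Scl-, the difference was above 0 in 3 of the 12 and below 0 in 9, its median was -0.12 log units, and 0 genes passed that p, against 5.39% of all genes as higher and 3.75% as lower. In 10 of the 12 the difference was under 0.2 log units in size, and the 95% intervals of the 12 reached from -0.90 to 0.46. Between SclKO and WT Scl+ the median was 0.12, with 9 positive and 3 negative, and between SclKO and WT Scl- it was 0.04, with 7 positive and 5 negative; at that p, 7.16% and 3.15% of all genes were higher in these comparisons. The SclKO minus WT Scl+ median was 0.25 with the mean of a gene's probe sets and ran from 0.06 to 0.20 with 1 array left out. Of the 28 replication probe sets that exceeded the dim limit on 2 or more arrays, 24 were above 0 and 4 below in that comparison (median 0.20), and 7 were above and 21 below 0 between the WT groups (median -0.13). Probe sets not used for their gene gave SclKO minus WT Scl+ values of 0.69 for Mcm5 (SE 0.27) and 0.52 for Mcm2 (SE 0.21), against 0.09 and 0.10 on those used.

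The helicase subunit Mcm6 was at 11.84 and 11.80 in WT Scl+, 12.01 and 12 in WT Scl- and 11.81 and 11.75 in SclKO, the highest in WT Scl- without overlap. Mcm4, another subunit, was at 10.88 and 11.06 in WT Scl+, 11.02 and 11.00 in WT Scl- and 10.80 and 10.94 in SclKO, and its WT groups overlapped. Mcm6 differed by -0.18 (SE 0.14) between WT Scl+ and WT Scl- and by -0.23 (SE 0.14) between SclKO and WT Scl-. The other 4 subunits, Mcm2, Mcm3, Mcm5 and Mcm7, had WT Scl+ minus WT Scl- differences from -0.15 to 0.04 with standard errors of 0.14 to 0.20. Pcna, the sliding clamp of the replicative polymerases, was at 12.08 and 11.92 in WT Scl+, 12.19 and 12.02 in WT Scl- and 12.30 and 12.14 in SclKO, and both SclKO arrays lay above both WT Scl+ arrays, as in 23.2% of all genes.

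Rrm1, the large subunit of ribonucleotide reductase, was at 11.25 and 11.08 in WT Scl+, 11.39 and 11.30 in WT Scl- and 11.58 and 11.41 in SclKO. On the probe set used, the 3 groups of Rrm1 did not overlap, and its SclKO minus WT Scl+ value was 0.33 (SE 0.15, limma adjusted p = 0.406). Another Rrm1 probe set above the dim limit gave 0.18 (SE 0.16). Its WT groups overlapped, with a difference of 0.00 (SE 0.16). Rrm2, the small subunit, differed by 0.00 (SE 0.15) between the WT groups. Cdc6, which loads the helicase at origins, was at 9.73 and 9.22 in WT Scl+, 9.94 and 9.70 in WT Scl- and 9.88 and 9.63 in SclKO. Gmnn, which encodes geminin, an inhibitor of the loader Cdt1, was at 10.46 and 9.85 in WT Scl+, 10.52 and 10.47 in WT Scl- and 10.67 and 10.45 in SclKO. In Cdc6 and Gmnn the lowest array was WT Scl+ replicate 2, and without it their WT Scl+ minus WT Scl- differences of -0.35 (SE 0.22) and -0.34 (SE 0.23) were -0.09 and -0.04. Cdt1 itself ran the other way, at 11.29 and 11.28 in WT Scl+, 11.20 and 11.16 in WT Scl- and 11.15 and 10.97 in SclKO. It was the 1 replication gene with both WT Scl+ arrays above all 4 others, a pattern found in 10.9% of all genes.

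The mean level of the 12 replication genes was 11.18 and 11.04 in WT Scl+, 11.26 and 11.19 in WT Scl- and 11.29 and 11.16 in SclKO. The mitotic mean minus the replication mean was -1.24 and -1.10 in WT Scl+, -1.70 and -1.61 in WT Scl- and -1.70 and -1.57 in SclKO, so this contrast within an array was higher on both WT Scl+ arrays than on the other 4. It is given as a description, with no test.

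**Figure D4:**
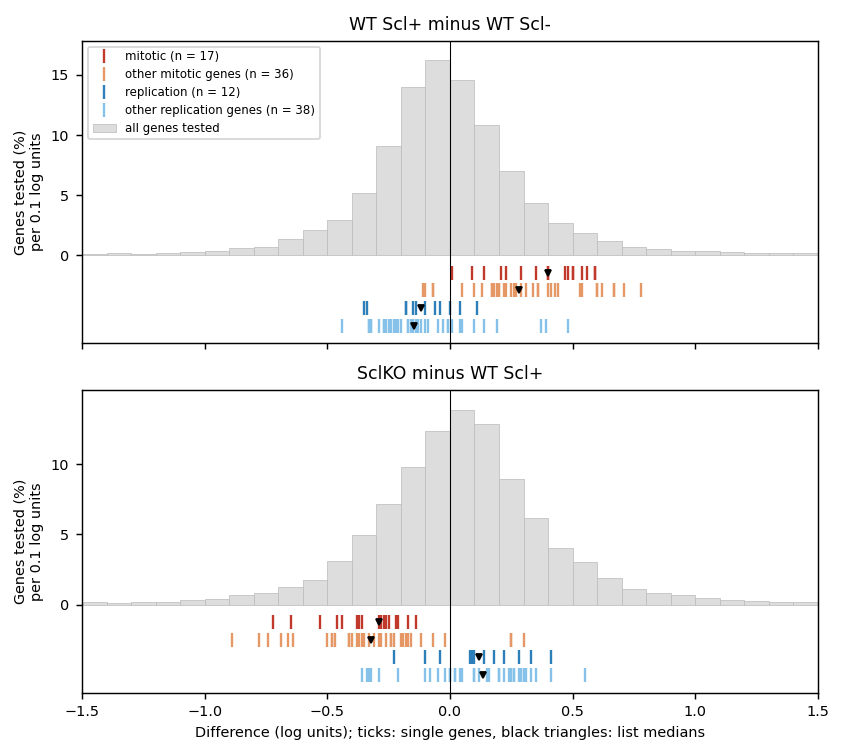
Histograms of the difference over all 12922 genes tested (percent of genes per 0.1 log units, shown from -1.5 to 1.5), with ticks for single genes of 4 lists and black triangles for list medians; top WT Scl+ minus WT Scl-, bottom SclKO minus WT Scl+. The medians of the 17 mitotic and 36 other mitotic genes lie at 0.40 and 0.28 in the top panel and at -0.29 and -0.32 in the bottom one, and those of the 12 replication and 38 other replication genes at -0.12 and -0.15, then 0.12 and 0.13; the panels share the WT Scl+ arrays.

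Genes of G1 and S entry were lower in WT Scl+ for the most part, led by both E-type cyclins. WT Scl+ minus WT Scl- was below 0 in 8 of the 10, its median was -0.21 log units, and 3 (Ccnd2, Ccne1 and Ccne2) had an unadjusted p under 0.05 as lower, against 3.75% of all genes. None passed over all genes (lowest limma adjusted p = 0.485). Of the 26 probe sets of this role that exceeded the dim limit on 2 or more arrays, 2 were above 0 and 24 below. That count of 3 was 6 without WT Scl+ replicate 1, 0 without WT Scl+ replicate 2 or WT Scl- replicate 1, and 1 without WT Scl- replicate 2 or either SclKO array; the median was -0.52 without WT Scl+ replicate 1 and -0.11 without replicate 2.

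Ccne1, whose product cyclin E1 activates Cdk2 at the start of S phase, was at 8.43 and 7.49 in WT Scl+, 8.95 and 8.68 in WT Scl- and 9.02 and 9.02 in SclKO. Ccne2, for cyclin E2, was at 5.72 and 4.70 in WT Scl+, 6.30 and 6.04 in WT Scl- and 6.54 and 6.22 in SclKO. Both genes were lowest on the 2 WT Scl+ arrays, and WT Scl+ replicate 2 lay well below replicate 1. Ccne1 differed by -0.85 log units between the WT groups (SE 0.31, 1.81-fold or 2.35-fold lower in WT Scl+, limma adjusted p = 0.488) and Ccne2 by -0.96 (SE 0.34, 1.95-fold or 2.62-fold lower, limma adjusted p = 0.485). Without WT Scl+ replicate 2 these were -0.38 and -0.45; without WT Scl+ replicate 1, Ccne1 was at -1.33 and passed over all genes (limma adjusted p = 0.0469), with the lone WT Scl+ array assumed to vary like the other groups.

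Ccnd2, for cyclin D2, was at 9.42 and 9.07 in WT Scl+, 10.17 and 9.59 in WT Scl- and 9.87 and 9.69 in SclKO, with both WT Scl+ arrays below all 4 others. All 7 Ccnd2 probe sets had a negative WT Scl+ minus WT Scl- difference, from -1.38 to -0.51, and the one used for the gene gave -0.63 (SE 0.24, limma adjusted p = 0.506), which was -0.34 without WT Scl- replicate 1 and -0.93 without WT Scl- replicate 2. Ccnd3, for cyclin D3, ran the other way, at 8.27 and 8.55 in WT Scl+, 7.95 and 8.12 in WT Scl- and 7.94 and 7.76 in SclKO. It was the 1 gene of this group with both WT Scl+ arrays above all others, a pattern found in 10.9% of all genes. Ccnd1 differed by 0.04 log units (SE 0.20) between the WT groups. E2f1, the activating E2F factor, was at 8.0 and 7.04 in WT Scl+, 8.18 and 7.94 in WT Scl- and 8.39 and 7.73 in SclKO on the probe set used (-0.54, SE 0.37). Its 2 other probe sets gave -0.03 and 0.68, the latter with 1 array above the dim limit. E2f1 is counted by the probe set used, with a value below 0 here and above 0 between SclKO and WT Scl+, and was at 0.04 and -0.01 with the mean of its probe sets.

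Against WT Scl+, SclKO had 9 positive differences and 1 negative among the 10, with a median of 0.45 log units, and 3 genes (Ccne1, Ccne2 and Cdk4) at an unadjusted p under 0.05 as higher, against 7.16% of all genes. Ccnd3 was lower at that p, against 6.81% of all genes, with a difference of -0.56 (SE 0.17, limma adjusted p = 0.257). Of the 26 probe sets of this role that exceeded the dim limit on 2 or more arrays, 24 were above 0 and 2 below (median 0.52). The differences were 1.06 for Ccne1 (SE 0.31, 2.08-fold or 2.89-fold, limma adjusted p = 0.245) and 1.17 for Ccne2 (SE 0.34, 2.26-fold or 3.23-fold, limma adjusted p = 0.243). Both rest on the same WT Scl+ arrays as above: they were 0.59 and 0.66 without WT Scl+ replicate 2, and 1.53 and 1.69 without replicate 1, where both passed over all genes (limma adjusted p = 0.0291 and 0.0306). The count of 3 was 5 without WT Scl+ replicate 1, 2 without WT Scl+ replicate 2, 0 without SclKO replicate 1 and 1 without SclKO replicate 2.

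Cdk4, a partner kinase of the D-type cyclins, was at 10.47 and 10.32 in WT Scl+, 10.67 and 10.35 in WT Scl- and 10.90 and 10.79 in SclKO. Cdk6, the other partner, was at 7.41 and 7.47 in WT Scl+, 7.86 and 7.29 in WT Scl- and 7.75 and 8.04 in SclKO. On the probe sets used, SclKO was higher than WT Scl+ without overlap for both kinases, as in 23.2% of all genes. For Cdk4 it was also higher than WT Scl- without overlap, as in 22.9% of all genes. The SclKO minus WT Scl+ value was 0.45 for Cdk4 (SE 0.17, limma adjusted p = 0.33). It was 0.45 for Cdk6 (SE 0.23, limma adjusted p = 0.444). Other probe sets gave 0.71 (SE 0.23) and 0.48 (SE 0.18) for Cdk4. For Cdk6 they gave 0.74 (SE 0.25) and, with overlap, 0.05 (SE 0.22). Cdk2, the kinase of the E-type cyclins, and Cdc25a, the phosphatase that activates it, overlapped between SclKO and WT Scl+, at 0.05 (SE 0.22) and 0.10 (SE 0.24). Between SclKO and WT Scl- the 10 genes had a median difference of 0.02, and 0 had an unadjusted p under 0.05, against 3.15% of all genes as higher and 2.38% as lower.

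Of the inhibitors, Rb1, the retinoblastoma gene, differed the most, at 6.26 and 5.77 in WT Scl+, 5.58 and 5.45 in WT Scl- and 4.81 and 5.54 in SclKO. The WT Scl+ arrays of Rb1 were the highest 2, and the gene differed by -0.84 between SclKO and WT Scl+ (SE 0.28, 1.79-fold or 2.32-fold lower, limma adjusted p = 0.29; -0.48 without SclKO replicate 1). Cdkn1a, for the inhibitor p21, was at 9.12 and 9.37 in WT Scl+, 8.99 and 9.48 in WT Scl- and 8.61 and 9.10 in SclKO. Its SclKO minus WT Scl+ difference was -0.39 (SE 0.25), without overlap, as for 20.2% of all genes that were lower. Another Cdkn1a probe set gave -0.70 (SE 0.28) there and 0.31 (SE 0.28) between the WT groups. Cdkn1b, for p27, was at 8.76 and 9.17 in WT Scl+, 8.61 and 8.85 in WT Scl- and 8.80 and 8.88 in SclKO. Cdkn2c, for p18, was at 4.60 and 5.29 in WT Scl+, 4.73 and 4.87 in WT Scl- and 4.78 and 5.20 in SclKO, close above the dim limit of 4.54 to 4.59. On the probe sets used, the WT groups overlapped in all 3 of these genes. Their WT Scl+ minus WT Scl- differences of 0.01 to 0.24 had standard errors of 0.19 to 0.27. Another Cdkn1b probe set gave 0.34 (SE 0.19) without overlap, and -0.40 (SE 0.19) between SclKO and WT Scl+. Of the inhibitor probe sets, 7 exceeded the dim limit on 2 or more arrays. All 7 were above 0 between the WT groups (median 0.31). Between SclKO and WT Scl+, 1 was above 0 and 6 below (median -0.40). The median of the 4 tested inhibitors was 0.19 between the WT groups, -0.26 between SclKO and WT Scl+ and -0.12 between SclKO and WT Scl-. With 1 array left out these medians ran from -0.04 to 0.35, from -0.42 to -0.09 and from -0.32 to 0.08. Cdkn2a, for p16 and its alternative product, lay between 3.80 and 4.56, under the dim limit on every array.

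Other genes of the pathway, from lists outside the 45, gave like values by role. WT Scl+ minus WT Scl- was above 0 in 32 of 36 other mitotic genes, against 46.1% of all genes, and had a median of 0.28 log units. Of the 36, 13 had an unadjusted p under 0.05 as higher and 0 as lower, against 5.39% and 3.75% of all genes. In SclKO minus WT Scl+, 33 of the 36 were negative with a median of -0.32, where 55.5% of all genes were above 0, and 14 had such a p as lower, against 6.81%. In 24 of the 36 both WT Scl+ arrays lay above all 4 others, as in 10.9% of all genes, and in 1, Spc24, they lay below all 4, as in 10.6%. Prc1, which bundles the central spindle, was at 9.57 and 9.56 in WT Scl+, 8.55 and 9.02 in WT Scl- and 8.58 and 8.77 in SclKO. Ccnf, for cyclin F, was at 9.20 and 9.32 in WT Scl+, 8.48 and 8.62 in WT Scl- and 8.66 and 8.48 in SclKO. Prc1 and Ccnf thus had clear gaps between WT Scl+ and both other groups, with WT Scl+ minus WT Scl- differences of 0.78 (SE 0.20) and 0.71 (SE 0.15), both at a limma adjusted p of 0.397. Hmmr, which encodes a spindle assembly and hyaluronan-binding protein, was at 9.63 and 9.56 in WT Scl+, 9.26 and 9.38 in WT Scl- and 8.82 and 8.82 in SclKO, and Nek2, a centrosome kinase, at 8.83 and 8.73, 8.51 and 8.56, and 8.19 and 8.10. These 2 genes were lower in SclKO than in WT Scl- too, by differences of -0.50 (SE 0.14) and -0.39 (SE 0.14), both at a limma adjusted p of 0.885.

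The 38 other replication genes had medians of -0.15, 0.13 and 0.01 log units in the 3 comparisons in the order above, and 1 was higher and 1 lower at an unadjusted p under 0.05 between the WT groups. Over all genes 5.39% were higher and 3.75% lower at that p, so 1 of 38 each way is no more than that background. Orc6, of the origin recognition complex, was the lower one, at 10.09 and 9.70 in WT Scl+, 10.32 and 10.34 in WT Scl- and 10.31 and 10.18 in SclKO (-0.44, SE 0.18). Dbf4, the activator of the kinase that fires origins, was the higher one, at 9.21 and 9.15 in WT Scl+, 8.80 and 8.81 in WT Scl- and 8.83 and 8.87 in SclKO (0.37, SE 0.14). Orc2, of the same complex as Orc6, was higher in SclKO than in WT Scl+ at such a p, by a difference of 0.55 (SE 0.20). None of the 3 passed over all genes (limma adjusted p = 0.538, 0.493 and 0.313).

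Most of the 18 other genes of inhibition and cell cycle exit were lower in SclKO. SclKO minus WT Scl+ was negative in 15 of them (median -0.40 log units), where 55.5% of all genes were above 0. At an unadjusted limma p under 0.05, 5 were lower and 1 higher, against 6.81% and 7.16% of all genes. SclKO minus WT Scl- was negative in 13 (median -0.15), where 54% of all genes were above 0. Cdkn1c ran the other way and was the 1 gene called over all genes, in both comparisons with SclKO. Cdkn1c, for the imprinted inhibitor p57, rose in SclKO: it was at 7.80 and 7.31 there, against 3.69 and 3.62 in WT Scl+ and 3.56 and 3.64 in WT Scl-, which lay under the dim limit. The measured difference of Cdkn1c was 3.90 log units against WT Scl+ (SE 0.20, limma adjusted p = 0.0104). Against WT Scl- it was 3.95 (SE 0.20, limma adjusted p = 0.00957). These tests used WT values under the limit, and only the SclKO arrays took the gene past the filter. With the WT values set to the limit, SclKO was at least 7.98-fold or 20.0-fold above WT Scl+. The bound against WT Scl- was 7.87-fold or 19.6-fold. The p-values are for the measured differences and not for these bounds. The call was lost against WT Scl+ without WT Scl+ replicate 2 or either SclKO array, and against WT Scl- without any 1 of the 4 arrays compared (limma adjusted p from 0.0551 to 0.22), as a check added after the data were seen; the difference in log units ran from 3.66 to 4.14 and from 3.71 to 4.20. The parental line of SclKO differs from that of both WT groups, as given above. Gadd45g, a stress gene that restrains growth, was at 8.47 and 9.12 in WT Scl+, 6.42 and 8.21 in WT Scl- and 7.03 and 7.56 in SclKO, a WT Scl+ minus WT Scl- difference of 1.48 (SE 0.58, limma adjusted p = 0.517). The WT Scl- arrays of Gadd45g lay far apart. Sesn1, a stress-responsive target of p53, was lower in SclKO than in WT Scl- by a difference of -0.60 (SE 0.16, limma adjusted p = 0.885).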

How the data were processed

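Total RNA of 6 sorted populations was measured on Affymetrix arrays, 2 in each of 3 groups taken from the sample titles. Per the submitters' processing notes, the authors used RMA, affy and limma, with no versions given. The deposited values are a signal that is not on a log scale and whose unit is not stated; their natural log, which spans the range RMA gives in log2, was used. A platform table gave 1 symbol for 34958 of 45101 probe sets. Per gene, the probe set with the highest mean was used, and genes above the 40th percentile of 2 or more arrays were tested (12922 of 18193). Group means were fitted over all 6 arrays by limma 3.58.1 (R 4.3.3, two-sided, eBayes, 3 residual and 3.16 prior degrees of freedom), with Benjamini-Hochberg adjustment over all genes tested and calls at 0.05. Arrays have no read depth; their number limits the precision.

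The members, lists and rules were chosen with earlier results of these data known. Levels on all arrays are given for members with an unadjusted p under 0.05 and no overlap in any comparison, for the 3 largest differences per role and comparison, and for members whose probe sets differ in sign by over 0.5 log units each way; other lists give called genes and their 2 largest such differences per comparison. A few further members are named to complete a role. Promoters are RefSeq windows of GRCm38.p6, held for 34 members and not for Mcm4, Gmnn, Ccnd1, Ccnd2, Ccne2, Ccna2, Cdc25c, Aurkb, Kif20a and Rb1. Alternatives were a replicate block, other filters, probe set rules, normalizations, eBayes settings, array weights, an added constant, fits of only the groups compared and leaving out each array.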

Additional observations from a re-analysis of the deposited data

How the results depend on the processing

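The signs of the mitotic medians between the WT groups and between SclKO and WT Scl+ held under every alternative run, from 0.29 (mean of a gene's probe sets) to 0.45 and from -0.37 to -0.26 log units. Member differences under alternatives were taken for 28 members, picked for a low p, a large difference or probe sets of differing sign. The other tested members, some with differences near 0, are not in this count. Of the 1506 differences, 26 reversed. Those that passed the threshold did so only without WT Scl+ replicate 1, as given above. With the mean of a gene's probe sets, the replication median between SclKO and WT Scl+ was 0.25, and reversals between these groups were Mcm4 (0.15), Mcm6 (0.14) and E2f1 (-0.01), with E2f1 at 0.04 between the WT groups and Ccnd2 (0.01), Aurka (-0.07) and Top2a (0.02) between SclKO and WT Scl-. Probe sets under the dim limit on all 6 arrays entered these means for Aurka, Top2a and Mcm6. Centring on the 75th percentile put Cdkn2c at -0.01 between SclKO and WT Scl+.

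Leaving out 1 array at a time moved these differences across 0. Between the WT groups, Mcm4 ran from -0.12 to 0.05, Cdkn1a from -0.24 to 0.25, Cdkn2c from -0.20 to 0.49, Cdk4 from -0.28 to 0.04 and Cdk6 from -0.42 to 0.15. Between SclKO and WT Scl+, Cdkn2c ran from -0.30 to 0.39 and Cdkn1b from -0.34 to 0.08. Between SclKO and WT Scl-, Cdc6 ran from -0.19 to 0.06, Ccnd2 from -0.39 to 0.20, Cdc25b from -0.03 to 0.50, Cdkn1b from -0.01 to 0.22, Gmnn from -0.05 to 0.17, Mki67 from -0.15 to 0.01, Rb1 from -0.70 to 0.02 and Cdkn2c from -0.02 to 0.40. Medians ran from -0.52 to -0.11 (G1 and S entry, WT groups), from -0.37 to -0.29 (mitotic, SclKO and WT Scl+) and from -0.06 to 0.11 (replication, SclKO and WT Scl-).

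Counts moved too. Genes called ranged from 0 to 203 between the WT groups, from 0 to 701 between SclKO and WT Scl+ and from 0 to 1 between SclKO and WT Scl- when 1 array was left out. Between SclKO and WT Scl+, the count was 9 with the filter at the 60th percentile, 4 with the mean of probe sets, 2 over all probe sets, 18 with the trend, 4 with 16 added before the log and 49 with only the 2 groups. Between SclKO and WT Scl-, it was 2 at the 60th percentile, 4 with the mean of probe sets, 2 over all probe sets, 3 with the trend, 2 with array weights and 2 with 16 added. At an unadjusted p under 0.05, G1 and S entry genes lower in WT Scl+ than in WT Scl- numbered 1 with only the 2 groups and 0 to 6 without 1 array, and those higher in SclKO than in WT Scl+ numbered 0 to 5 without 1 array. Mitotic genes higher in WT Scl+ numbered 4 to 7 without 1 array; those lower in SclKO than in WT Scl+ numbered 4 with array weights, 4 with only the 2 groups and 3 to 6 without 1 array. The causes were not tested.

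The titles share replicate numbers 1 and 2, with no shared origin given. Same-numbered arrays correlated in their deviations from the group means at 0.254, 0.247 and 0.249 for the 3 pairs of groups. With the replicate block, 3 genes were called between SclKO and WT Scl+, 0 of them members, and 5 G1 and S entry genes were higher in SclKO at an unadjusted p under 0.05; no member's call differed.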

Other observations

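The E2F family outside the 45 genes had differences of both signs. Of 9 tested members, 3 had a positive and 6 a negative WT Scl+ minus WT Scl- difference, with a median of -0.12 log units. E2f2, an activating E2F, was at 5.72 and 5.94 in WT Scl+, 5.11 and 5.23 in WT Scl- and 4.94 and 5.13 in SclKO, with a WT Scl+ minus WT Scl- difference of 0.66 (SE 0.16, limma adjusted p = 0.397) and a SclKO minus WT Scl+ difference of -0.79 (SE 0.16, limma adjusted p = 0.156). Of the repressive members, E2f6 differed by 0.73 between SclKO and WT Scl+ (SE 0.24, limma adjusted p = 0.288). E2f4 differed by 0.58 between SclKO and WT Scl- (SE 0.17, limma adjusted p = 0.885). E2f5 was at -0.14 and -0.39 in these comparisons (SE 0.27 each). E2f7 was at 0.45 and 0.32 (SE 0.20 each), and E2f8 at 0.73 and 0.45 (SE 0.35 each). None passed over all genes. Among 11 other kinases and cyclins, 0 had an unadjusted p under 0.05 between the WT groups, and Mycn, a growth-promoting Myc factor, had a SclKO minus WT Scl+ difference of 0.45 (SE 0.18, limma adjusted p = 0.351).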
